A study of Mus musculus with 2 samples.

Results

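The platelet granule and glycoprotein genes described here are 9 genes, Pf4, Ppbp, Thbs1, Vwf, Treml1, Itga2b, Itgb3, Gp9 and Gp1bb, of 54531 genes in a table of expression in mouse bone marrow haematopoietic stem cells (HSCs). They were chosen by symbol as platelet granule, glycoprotein and megakaryocyte priming genes, with earlier results on these libraries known, so their ratios are a description and carry no test. One library came from HSCs of Cdh5-Cre;Angptl2fl/fl mice (Angptl2-deficient library), in which Cre under the promoter of the endothelial cadherin gene Cdh5 acts on floxed alleles of Angptl2, a secreted angiopoietin-like protein. That library name stands for the genotype of the mice only, and a loss of Angptl2 in the sorted HSCs could not be checked here. The other came from HSCs of Angptl2fl/fl mice (Angptl2fl/fl library), which carry the floxed alleles by their genotype label, although the description of that sample names Cdh5 and Cre and no floxed allele. Whether the control mice had Cre, the age of the mice, how many were pooled, and the markers of the sort are not stated in the labels. With 1 library per genotype there is no replicate check and no p-value, and "higher" and "lower" compare these 2 libraries only.

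Megakaryocytes are the marrow cells that shed platelets, and they load the alpha granules of platelets with chemokines and adhesive proteins. At a wound, von Willebrand factor holds platelets through the GPIb-IX-V receptor complex, and the integrin αIIbβ3 then binds fibrinogen and links platelets to each other. Some HSCs already express genes of this programme, among them Vwf and Itga2b (CD41), and such cells are described as megakaryocyte or platelet primed. RefSeq (GRCm38.p6) sequences upstream of the start were matched for 6 of the 9 genes, Pf4, Ppbp, Treml1, Itga2b, Gp9 and Gp1bb, and were not matched for Thbs1, Vwf and Itgb3. The 250 bases before the start are printed for the 4 matched genes with the highest ratios, to show the letters of these promoters beside the values that follow, with every match to the ETS motif searched in capitals.
Pf4 (chr5:90772185-90772434, plus strand): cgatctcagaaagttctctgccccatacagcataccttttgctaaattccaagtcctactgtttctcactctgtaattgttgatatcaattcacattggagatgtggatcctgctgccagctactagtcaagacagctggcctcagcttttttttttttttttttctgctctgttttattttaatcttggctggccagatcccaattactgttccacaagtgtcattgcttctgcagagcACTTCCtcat
Ppbp (chr5:90768268-90768517, plus strand): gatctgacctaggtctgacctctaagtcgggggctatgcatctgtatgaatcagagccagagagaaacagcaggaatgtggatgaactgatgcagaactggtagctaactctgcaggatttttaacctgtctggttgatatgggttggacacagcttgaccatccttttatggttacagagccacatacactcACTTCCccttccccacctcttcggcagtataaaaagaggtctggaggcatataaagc
Treml1 (chr17:48359666-48359915, plus strand): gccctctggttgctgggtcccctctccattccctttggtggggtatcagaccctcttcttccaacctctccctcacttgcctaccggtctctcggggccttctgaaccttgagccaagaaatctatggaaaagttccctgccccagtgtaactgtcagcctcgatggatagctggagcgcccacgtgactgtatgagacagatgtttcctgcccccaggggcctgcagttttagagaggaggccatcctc
Itga2b (chr11:102469884-102470133, minus strand): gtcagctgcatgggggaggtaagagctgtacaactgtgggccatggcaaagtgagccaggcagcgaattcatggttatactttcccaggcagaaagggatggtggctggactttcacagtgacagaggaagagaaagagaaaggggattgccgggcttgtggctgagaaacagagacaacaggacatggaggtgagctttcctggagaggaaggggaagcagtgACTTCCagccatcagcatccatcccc

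Short motifs of megakaryocyte transcription factors were searched on both strands of the 6 windows, and none of the matches overlapped. The ETS motif searched, GGAAGT, was found in 4 of the 6 windows and in 19.7% of the 32851 windows of the same length in the table. In Pf4, Ppbp and Itga2b it stands on the opposite strand and begins 10, 57 and 26 bases before the RefSeq start. For Itga2b that start, at 102469883, is also the start of the coding transcript in GENCODE, but a non-coding transcript of the gene starts further upstream, at 102470122, so 239 of the 250 printed bases lie within the annotated gene. In Gp9 it stands on the gene's strand, 240 bases before the start. The RUNX motif searched, TGTGGT, was found in the Gp9 window only, on the opposite strand, against 14.0% of all windows. For GATA factors the letters AGATAA were searched, with a match in none of the 6 windows, against 9.99% of all windows. For NFE2 the core letters TGAGTCA were searched, also without a match, against 4.46% of all windows. Each match is a match of letters and not a measured binding site.

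The values are FPKM (fragments, scaled by the length of the gene's exons and by the total fragments of the library), and the libraries had depths of 16843100 fragments (Angptl2-deficient) and 17378600 fragments (Angptl2fl/fl). Above 0 were 18217 genes in the Angptl2-deficient library and 21891 in the Angptl2fl/fl library, so a listed 0 was more common in the Angptl2-deficient library. Ratios are Angptl2-deficient over Angptl2fl/fl on the log2(FPKM + 1) scale unless a ratio is said to have no pseudocount, and a gene counts as higher or lower from 2-fold on that scale. Genes were measured where the mean of the libraries was at least 1 FPKM, which 8 of the 9 genes passed. Of the 8, 3 were higher by 2-fold or more in the Angptl2-deficient library, 1 was lower by as much and 4 lay between. Among 12325 genes of all types 2.47% were higher and 3.38% lower by the same rule, and among the 10237 protein-coding genes 0.488% and 0.752%. These shares are given for scale and nothing is read from the counts beside them, since the 9 genes were chosen with their ratios known. With the minimum raised to a mean of 5 FPKM, 4 of the 9 genes were left, of which 1 (Pf4) was higher and 1 (Thbs1) lower, against 1.08% and 1.27% of 7658 genes. With a minimum mean of 200 fragments 5 were left, and the same pair was past 2-fold, against 0.421% and 0.466% of 8797 genes. The median ratio of the 8 was 0.68, against -0.011 over all genes, with quartiles of -0.20 and 0.18. In RNA from sorted populations, fewer cells of a type and less RNA per cell cannot be told apart.

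**Figure D1:**
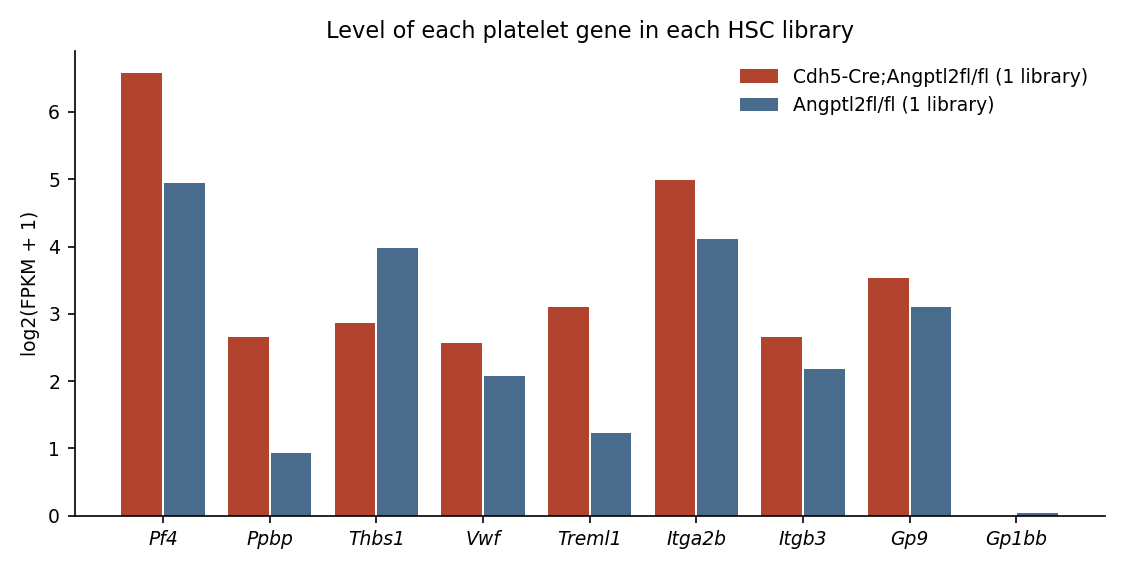
Level of each of the 9 genes as log2(FPKM + 1), with the Cdh5-Cre;Angptl2fl/fl library left of the Angptl2fl/fl library, 1 library each and therefore no error bars. Pf4 is the highest gene in both libraries, Thbs1 is the one measured gene lower in the Angptl2-deficient library, and Gp1bb is at or near 0 in both.

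Pf4 made up most of the difference in the summed level of the 9 genes, a sum that describes these genes and not the whole platelet programme. The 9 genes summed to 165 FPKM in the Angptl2-deficient library and 77.6 FPKM in the Angptl2fl/fl library. Pf4 alone gave 57.3% of that sum in the Angptl2-deficient library and 38.6% in the Angptl2fl/fl library. Without Pf4 the sums were 70.6 and 47.7 FPKM, and without Pf4 and Itga2b they were 39.9 and 31.4 FPKM. In the Angptl2-deficient library 7 of the 9 genes reached 5 FPKM, against 4 in the Angptl2fl/fl library.

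Both granule chemokines were higher in the Angptl2-deficient library. Pf4 (platelet factor 4, CXCL4), an alpha granule chemokine that binds heparin, was at 94.7 FPKM in the Angptl2-deficient library, against 29.9 FPKM in the Angptl2fl/fl library, from 1150 and 375 fragments. The level is 3.16-fold higher, a log2 ratio of 1.66 without a pseudocount, with a counting interval of 1.49 to 1.83. This placed Pf4 above 95.9% of measured genes by level in the Angptl2-deficient library and above 84.1% in the Angptl2fl/fl library. Ppbp (pro-platelet basic protein, CXCL7), the precursor of a chemokine that attracts neutrophils, was at 5.32 FPKM in the Angptl2-deficient library and 0.903 FPKM in the Angptl2fl/fl library. These are 97 and 17 fragments, and the log2 ratio without a pseudocount was 2.56, with a counting interval of 1.80 to 3.39. The counting intervals of the chemokines overlapped, and with a pseudocount of 5 FPKM the ratio was 1.51 for Pf4 and 0.81 for Ppbp. Pf4 exceeded Ppbp 17.8-fold in level in the Angptl2-deficient library and 33.1-fold in the Angptl2fl/fl library.

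Pf4 (GRCm38 chromosome 5, 90772435 to 90773383, plus strand) and Ppbp (90768518 to 90770063, same strand) are next neighbours, 2372 bases apart, in a cluster of CXC chemokine genes. The other members of that cluster were low or close to equal between the libraries. Cxcl2, a neutrophil attractant made by many myeloid cells, was at 17.1 FPKM in the Angptl2-deficient library and 14.6 FPKM in the Angptl2fl/fl library, a ratio of 0.22. Cxcl5, the neighbour on the other side of Ppbp, had 16 fragments in the Angptl2-deficient library and 0 in the Angptl2fl/fl library, or 0.510 FPKM against a listed 0. Cxcl3, the neighbour beyond Pf4, had 4 fragments in the Angptl2-deficient library and 15 in the Angptl2fl/fl library. Cxcl1 and Cxcl15 had 7 fragments or fewer in either library.

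Treml1 (TLT-1), a receptor of the alpha granule membrane that reaches the platelet surface on activation, had the highest ratio of the 9 genes on the log2(FPKM + 1) scale. Without a pseudocount Ppbp was above it, with overlapping counting intervals, and with a pseudocount of 5 FPKM Pf4 was, at 1.51 against 0.99 for Treml1. Its level was 7.58 FPKM in the Angptl2-deficient library and 1.35 FPKM in the Angptl2fl/fl library, from 179 and 33 fragments. The log2 ratio was 1.87, and 2.48 without a pseudocount with a counting interval of 1.94 to 3.07. Among protein-coding genes, ranked from the highest ratio down, Treml1 stood at position 3, Ppbp at 4 and Pf4 at 6. In the same ranking of the 12325 genes of all types they stood at 97, 112 and 129. Treml1 (chromosome 17, 48359916 to 48367176, plus strand) lies among the TREM receptor genes, which are myeloid receptors. Trem3 was at 20.7 FPKM in the Angptl2-deficient library and 11.1 FPKM in the Angptl2fl/fl library. Trem1, which amplifies inflammatory signals in neutrophils and monocytes, was at 5.35 against 11.3 FPKM, a ratio of -0.95. Treml2 was at 21.0 against 21.2 FPKM, and Nfya, the next gene beyond Treml1 and a subunit of the NF-Y transcription factor, was at 19.2 FPKM in both. Trem2 and Treml4 were listed at 0 in the Angptl2-deficient library, where a listed 0 was more common over all genes, against 13 and 19 fragments in the Angptl2fl/fl library. None of these 4 measured genes, Trem3, Trem1, Treml2 and Nfya, passed 2-fold.

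**Figure D2:**
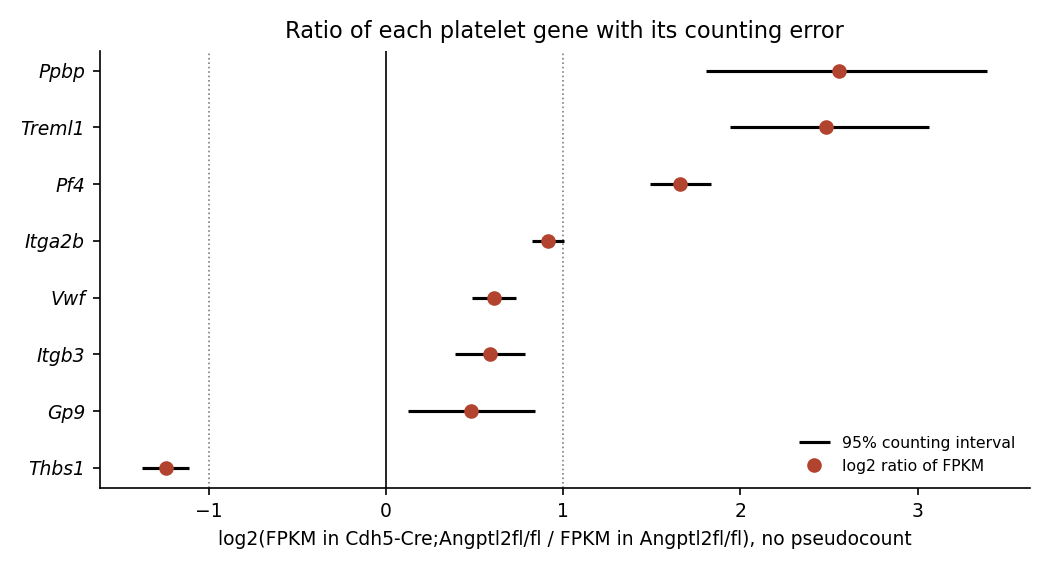
Log2 ratio of FPKM without a pseudocount, Cdh5-Cre;Angptl2fl/fl over Angptl2fl/fl, for the 8 genes with fragments in both libraries, with 95% Clopper-Pearson counting intervals as lines and 2-fold marked by dotted lines. The intervals of Ppbp, Treml1 and Pf4 lie above 2-fold, that of Itga2b reaches it at 1.01, and that of Thbs1 lies below 2-fold lower.

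The adhesive proteins of the alpha granule had ratios of opposite sign, of which that of Thbs1 passed 2-fold. Vwf (von Willebrand factor), which tethers platelets at a wound and marks platelet primed HSCs, was at 4.90 FPKM in the Angptl2-deficient library and 3.21 FPKM in the Angptl2fl/fl library, from 1325 and 895 fragments. The log2 ratio was 0.49, short of 2-fold, and 0.61 without a pseudocount with a counting interval of 0.49 to 0.74. Thbs1 (thrombospondin 1), a matrix glycoprotein that platelets release and that monocytes and other cells also make, was at 6.26 FPKM in the Angptl2-deficient library and 14.8 FPKM in the Angptl2fl/fl library. These are 640 and 1563 fragments, a log2 ratio of -1.12, and -1.24 without a pseudocount with a counting interval of -1.38 to -1.11. Thbs1 was 1.28 times as high as Vwf per length in the Angptl2-deficient library and 4.62 times in the Angptl2fl/fl library.

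Endothelial cells make von Willebrand factor as well. Of 19 endothelial markers, 8 were measured and 1 of those, Plvap at 12.2 against 11.1 FPKM, had a ratio above 0. The list summed to 104 FPKM in the Angptl2-deficient library and 112 FPKM in the Angptl2fl/fl library, of which Eng alone gave 59.6 and 66.4 FPKM. Tek, Robo4 and Esam are also in the list of HSC markers used here. Cdh5, Ptprb, Sox17 and Lyve1 were listed at 0 in the Angptl2-deficient library, where a listed 0 was more common over all genes. Sox17 and Lyve1 were at 0 in the Angptl2fl/fl library as well. Of the other markers under the minimum, Sox18 (9 and 1 fragments), Kdr (21 and 15) and Cldn5 (16 and 11) had more fragments in the Angptl2-deficient library. Flt1 (4 and 18), Flt4 (8 and 14), Emcn (32 and 63) and Stab2 (15 and 44) had fewer there. The part of endothelial cells in the Vwf ratio was not tested. Thbs1 was lower together with markers of other cell types. Of 13 measured monocyte and macrophage markers, 11 had a ratio below 0 and 5 were at least 2-fold lower (Fn1, Csf1r, Lyz2, Ctss and C1qa), with 180 FPKM summed over the list of 16 in the Angptl2-deficient library and 337 FPKM in the Angptl2fl/fl library. Ly6c2, a marker of inflammatory monocytes, had a ratio above 0 at 60.8 against 30.4 FPKM, as did Vcam1. All 12 neutrophil markers had a ratio below 0, 9 of them at least 2-fold lower, with sums of 1479 and 2590 FPKM. No gene of either myeloid list was at 0 in either library. The part of these cells in the Thbs1 ratio was not tested.

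**Figure D3:**
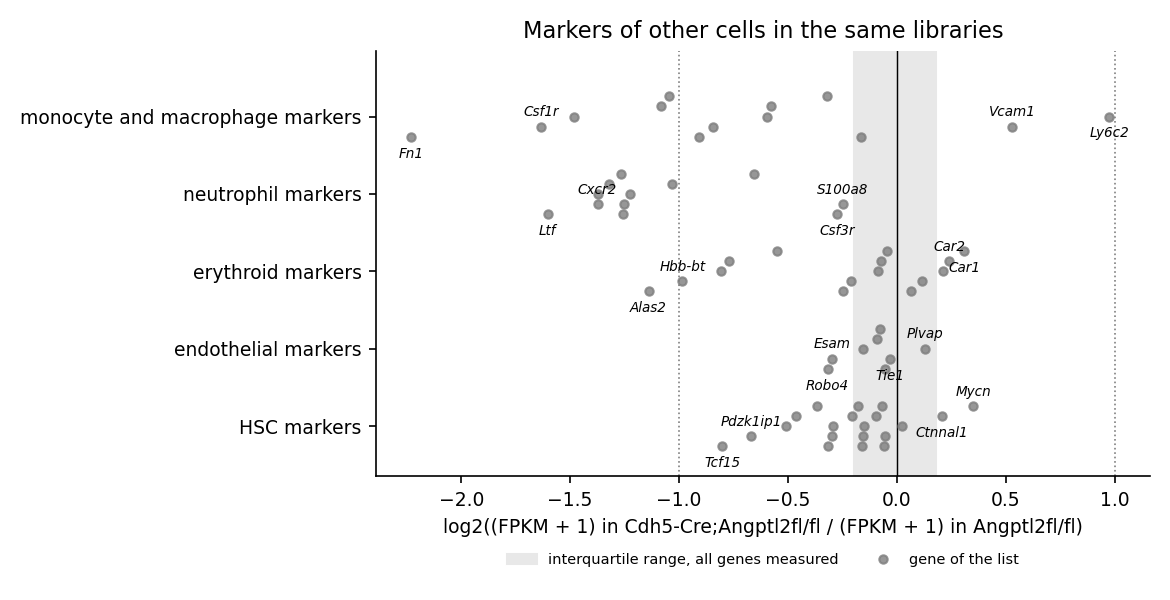
Log2((FPKM + 1) ratio), Cdh5-Cre;Angptl2fl/fl over Angptl2fl/fl, of each measured marker of other cell types and of HSCs, 1 dot per gene, with the 2 highest and 2 lowest of each list named, the interquartile range of all genes shaded and 2-fold dotted. Neutrophil and most monocyte and macrophage markers lie left of 0, endothelial markers between -0.32 and 0.13.

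The integrin αIIbβ3 is made of the products of Itga2b and Itgb3, and both had ratios above 0 and short of 2-fold. Itga2b (CD41), the α subunit found on megakaryocytes, platelets and early progenitors, was at 30.7 FPKM in the Angptl2-deficient library and 16.3 FPKM in the Angptl2fl/fl library. With 2822 and 1544 fragments it had the most fragments of the 9 genes over both libraries, and its log2 ratio without a pseudocount was 0.92 with a counting interval of 0.83 to 1.01. Its level was 1.89-fold higher, a ratio of 0.88 on the log2(FPKM + 1) scale. That ratio stood at position 92 among protein-coding genes and 390 among genes of all types. Itgb3, the β3 subunit, was at 5.28 FPKM in the Angptl2-deficient library and 3.52 FPKM in the Angptl2fl/fl library, a log2 ratio of 0.47, and 0.59 without a pseudocount (0.39 to 0.78). Per length, Itga2b was 5.82 times Itgb3 in the Angptl2-deficient library and 4.63 times in the Angptl2fl/fl library. Itgav, the other α subunit that pairs with β3, was at 0.707 FPKM in the Angptl2-deficient library and 1.35 FPKM in the Angptl2fl/fl library. The ratio of Itgav was -0.46, so neither α subunit passed 2-fold on the log2(FPKM + 1) scale. Without a pseudocount the counting interval of Itgav was -1.25 to -0.62, which reaches past 2-fold lower.

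The receptor for von Willebrand factor is built from the products of Gp1ba, Gp1bb, Gp9 and Gp5. Gp9 (glycoprotein IX) was at 10.6 FPKM in the Angptl2-deficient library and 7.58 FPKM in the Angptl2fl/fl library, from 157 and 116 fragments. Its log2 ratio was 0.43, short of 2-fold, and without a pseudocount it was 0.48 with a counting interval of 0.13 to 0.84. Gp1ba, the subunit that binds von Willebrand factor, was at 1.99 FPKM in the Angptl2-deficient library and 2.35 FPKM in the Angptl2fl/fl library, and Gp5 at 9.73 and 9.51 FPKM. Counting intervals of -0.66 to 0.17 for Gp1ba and -0.18 to 0.25 for Gp5 included equality, so no difference between the libraries could be detected with these fragment numbers.

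Gp1bb (glycoprotein Ib β, chromosome 16, 18620317 to 18622403, minus strand) had 0 fragments in the Angptl2-deficient library, which allows a level of up to 0.0853 FPKM, and 1 fragment in the Angptl2fl/fl library, 0.0276 FPKM. No ratio can be given. Of the 2087 exon bases of Gp1bb in the annotation, 92.9% are also exon bases of Sept5, a septin gene, or of Gm49601, both on the same strand. Sept5 had 11 fragments in the Angptl2-deficient library and 59 in the Angptl2fl/fl library, and Gm49601 had 22 and 5. How the authors counted fragments in overlapping genes is not stated in the labels, so the value of Gp1bb is uncertain. None of the other 8 genes overlapped a gene with fragments in either library.

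The order of the genes by level also differed. In the Angptl2-deficient library it ran Pf4, Itga2b, Gp9, Treml1, Thbs1, Ppbp, Itgb3, Vwf and Gp1bb. In the Angptl2fl/fl library it ran Pf4, Itga2b, Thbs1, Gp9, Itgb3, Vwf, Treml1, Ppbp and Gp1bb. Counting intervals of neighbours overlapped for several of these positions. In the Angptl2-deficient library this held for every neighbouring pair from Treml1 (6.51 to 8.78 FPKM) through Thbs1 (5.78 to 6.76 FPKM), Ppbp (4.31 to 6.49 FPKM) and Itgb3 (4.84 to 5.75 FPKM) to Vwf (4.64 to 5.17 FPKM). In the Angptl2fl/fl library it held for Itga2b (15.5 to 17.1 FPKM) with Thbs1 (14.1 to 15.6 FPKM), for Itgb3 (3.17 to 3.90 FPKM) with Vwf (3.00 to 3.42 FPKM), and for Treml1 (0.932 to 1.90 FPKM) with Ppbp (0.526 to 1.45 FPKM).

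**Figure D4:**
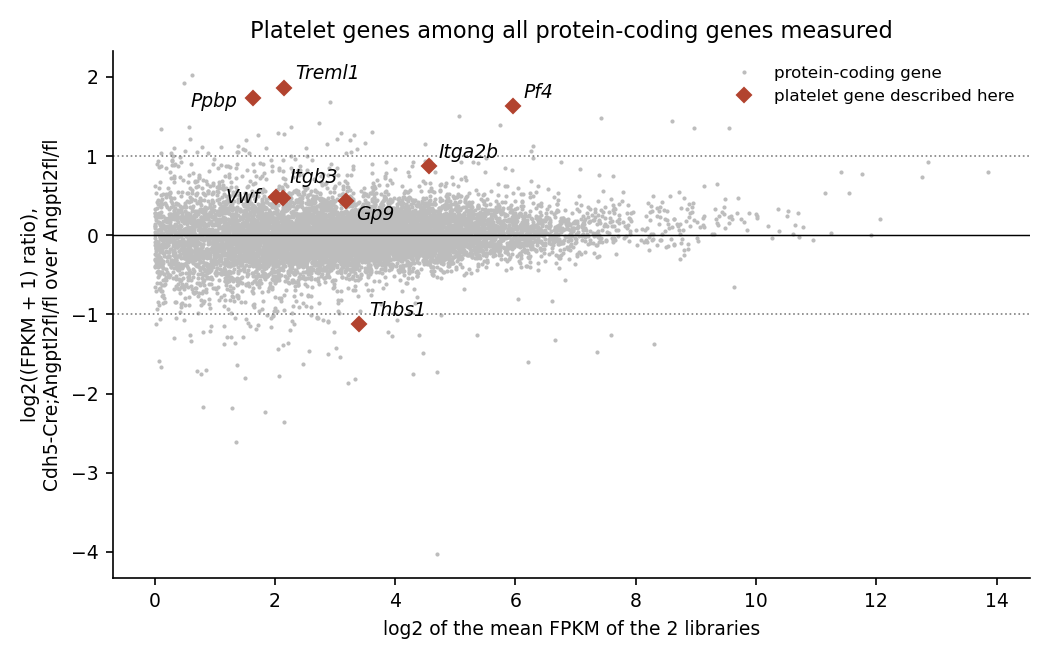
Log2((FPKM + 1) ratio), Cdh5-Cre;Angptl2fl/fl over Angptl2fl/fl, against log2 of the mean FPKM of the libraries, for measured protein-coding genes (grey) and the 8 measured platelet genes (diamonds), with 2-fold dotted. Treml1, Ppbp and Pf4 lie near the upper edge of the cloud, and Vwf, Itgb3 and Gp9 between 0.43 and 0.49.

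Genes of the same programme outside the 9 were mostly near equal between the libraries, as were most measured genes of any kind. Over 8 lists of platelet and megakaryocyte genes, 130 of 156 other genes were measured, and the rest lay under the minimum. On the log2(FPKM + 1) scale 0 of the 130 were at least 2-fold higher, 2 were at least 2-fold lower and 128 lay between. Over all measured protein-coding genes 0.488% were higher and 0.752% lower. Such shares leave few genes past 2-fold in lists of this size, so nothing is read from the counts here or in the lists below. The median ratio of the 130 was -0.056, with 53 above 0 and 77 below, near the -0.011 of all genes. Without a pseudocount Clu was 3.61-fold higher (98 and 28 fragments), against 3.16-fold for Pf4. Slc35d3 was then 2.26-fold and F2rl2 2.23-fold higher, and the lower genes, Ccl5 and F13a1, were 2.95-fold and 2.87-fold lower. These lists were also written with earlier results known. Among other alpha granule proteins, 13 were measured and the 2 lower ones were Ccl5, a chemokine also made by lymphocytes, at 1.48 against 4.38 FPKM, and F13a1, the A subunit of coagulation factor XIII that monocytes make too, at 1.30 against 3.74 FPKM. The highest were Clu (clusterin) at 1.69 against 0.469 FPKM, a ratio of 0.87, and Srgn (serglycin), the proteoglycan that retains Pf4 in granules and is also abundant in myeloid granules, at 210.4 against 124 FPKM.

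Genes that build the granules were mostly close to equal between the libraries. Of 10 genes of alpha granule assembly, 0 passed 2-fold in either direction, and the median ratio was -0.051. Nbeal2, whose loss in human gives platelets without alpha granules (grey platelet syndrome), was lowest at 9.55 against 13.9 FPKM, followed by Arf6 at 100.7 against 114 FPKM, and Vps35 was highest at 17.2 against 15.3 FPKM, followed by Vps16. Of 18 measured dense granule genes, 0 passed 2-fold on the log2(FPKM + 1) scale, with a median of -0.058. Slc35d3, needed for platelet dense granules in mouse, was highest at 4.85 against 2.14 FPKM, followed by Rab27b, a GTPase of granule release, at 1.75 against 0.954 FPKM. The lowest were Bloc1s6 at 7.08 against 9.05 FPKM and Ap3d1, an adaptor subunit, at 16.0 against 19.5 FPKM.

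Among 19 other measured platelet glycoproteins and receptors, 0 passed 2-fold on the log2(FPKM + 1) scale. Of the 19, 10 had a ratio above 0 and 9 below, and the median was 0.011. The highest were F2rl2, a thrombin receptor (PAR3), at 2.21 against 0.989 FPKM and Tbxa2r, the thromboxane receptor, at 2.07 against 1.14 FPKM, close to Cd9, a tetraspanin, at 16.1 against 10.95 FPKM. The lowest were Fcer1g, the signalling chain of the collagen receptor GPVI and of Fc receptors, at 13.9 against 26.1 FPKM, and Pear1 at 6.01 against 9.78 FPKM. Several genes of mature platelets, named after their values were seen, lay under 1 FPKM in both libraries. Others of the same list, Itga2b, Gp9 and Gp5 among them, lay above 5 FPKM in both, so the low ones do not stand for the list. Gp6 was at 0.0604 FPKM in the Angptl2-deficient library and 0.0195 FPKM in the Angptl2fl/fl library, Clec1b at 0.244 and 0.248 FPKM, and Tubb1, the platelet β1 tubulin, at 0.296 and 0.327 FPKM. P2ry12, the ADP receptor, was listed at 0 in both. Platelet signalling and cytoskeleton genes numbered 33 measured, of which 0 passed 2-fold, with a median of -0.039. Rgs18, a regulator of G protein signalling, at 18.1 against 10.3 FPKM and the adaptor gene Lat at 8.56 against 5.16 FPKM were highest, and Tpm4 and Ctla2a, at 70.5 against 95.6 FPKM, were lowest.

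Transcription factors and the thrombopoietin pathway were near equal too. Of 23 measured transcription factors of the megakaryocyte lineage, 0 passed 2-fold, with 6 above 0, 17 below and a median of -0.066. Lyl1 at 61.9 against 51.0 FPKM and Gabpa at 15.6 against 14.0 FPKM were highest, and Ets1 at 1.63 against 2.27 FPKM and Hoxb4 at 2.06 against 2.78 FPKM were lowest. Gata1, which drives megakaryocyte and erythroid genes, was at 86.9 FPKM in the Angptl2-deficient library and 92.9 FPKM in the Angptl2fl/fl library, and its partner Zfpm1 (FOG1) at 156 and 169 FPKM. Fli1, an ETS factor of megakaryocytes, was at 7.65 and 7.30 FPKM, and Runx1 at 7.91 and 7.66 FPKM. Of 17 measured genes of thrombopoietin signalling, 0 passed 2-fold, 14 were below 0 and the median was -0.15, from Stat3 at 7.96 against 11.2 FPKM and Shc1 at 28.8 against 36.2 FPKM up to Grb2 at 69.7 against 66.6 FPKM and Socs1 with a ratio of 0.21. Of 8 other measured genes tied to megakaryocyte primed HSCs, 0 passed 2-fold and the median was -0.010, with Cd9 highest, followed by Gp5, and Zfpm1 and Gata1 lowest.

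**Figure D5:**
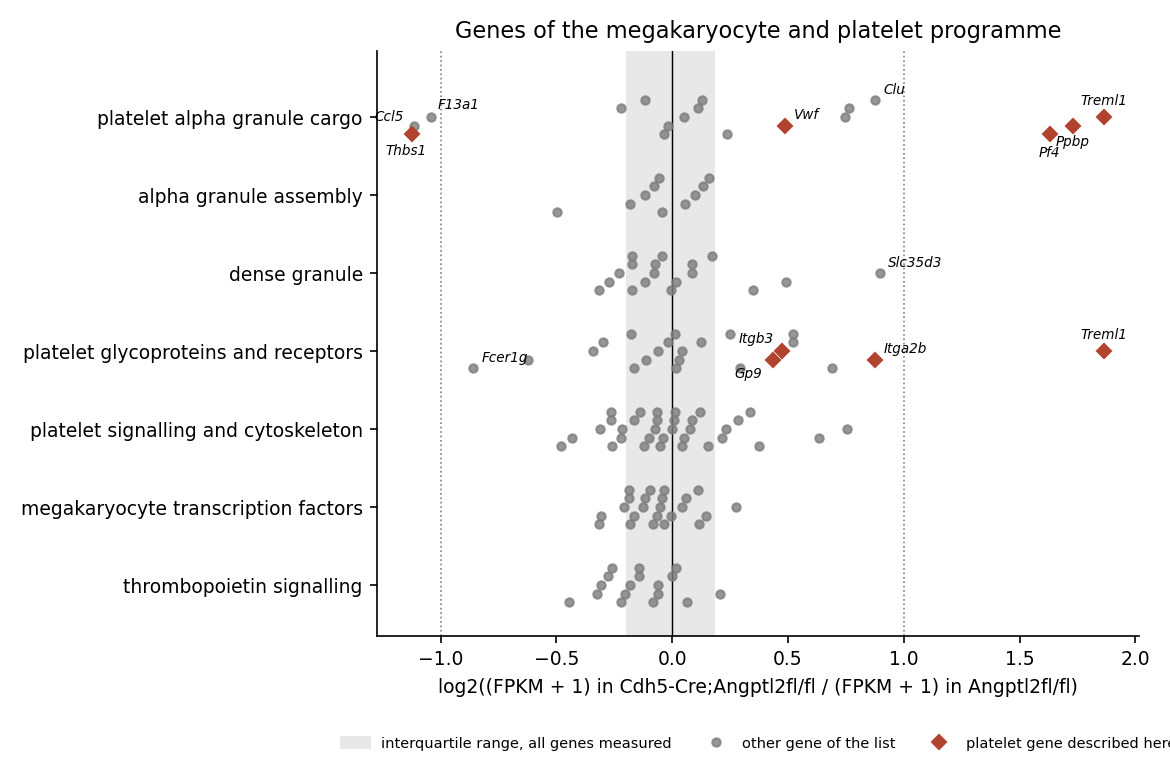
Log2((FPKM + 1) ratio), Cdh5-Cre;Angptl2fl/fl over Angptl2fl/fl, of each measured gene of 7 platelet and megakaryocyte lists, 1 marker per gene, with the genes described here as diamonds, the interquartile range of all genes shaded and 2-fold dotted. Treml1, Ppbp and Pf4 stand to the right of the other genes of their lists, while granule assembly, transcription factor and thrombopoietin genes lie around 0.

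As a check of the labels, Angptl2 was at 0.179 FPKM in the Angptl2-deficient library and 0.265 FPKM in the Angptl2fl/fl library, from 19 and 29 fragments, too few to check the genotype. Of 22 HSC markers 20 were measured, while Slamf1 (CD150) was at 0.550 and 0.402 FPKM and Hoxb5 at 0.149 and 0.351 FPKM. The 20 had a median ratio of -0.17, and 0 passed 2-fold. Erythroid markers summed to 3745 FPKM in the Angptl2-deficient library and 3411 FPKM in the Angptl2fl/fl library. Most of both sums came from Car1 (1629 against 1315 FPKM) and Car2 (832 against 703 FPKM). All 15 were measured, with 5 ratios above 0, 10 below, a median of -0.088 and 1, Alas2, at least 2-fold lower. Of 11 B and plasma cell markers 8 were measured, with sums of 64.1 and 63.8 FPKM and 0 past 2-fold. The libraries thus held RNA of erythroid, myeloid and B lineage genes beside that of HSC genes, and the part of such cells in the platelet gene ratios was not tested.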

How the data were processed

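RNA of sorted HSCs was sequenced as 150 bp paired-end reads, with 1 library per genotype, per the labels' protocols. The authors deposited FPKM for 54531 Ensembl genes. Bowtie 0.12.2 and the build mm8 are named, with no role, in the submitters' processing notes, and the counting method is not given in the sources used here. Positions and exon lengths (found for 54494 genes) are from GENCODE M21 on GRCm38.

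FPKM times exon length gave whole fragments, within 0.02, for 96.1% (Angptl2-deficient) and 96.5% (Angptl2fl/fl) of genes above 0, which gave depths and fragment numbers. Intervals are exact at 95% (Clopper-Pearson for ratios, Poisson for levels), use fragments without a pseudocount and cover counting error only. A count of 0 was taken to allow 3 fragments. FPKM moves with the make-up of each library, so 1 abundant gene shifts the rest.

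Ratios are log2((FPKM + 1)/(FPKM + 1)), which understates differences of low genes, over genes whose mean reached 1 FPKM. With 1 library per genotype no test was made. The members and lists were chosen with earlier results of these data known. Named were the 9 genes, list genes past 2-fold, the 2 highest and 2 lowest of each list, neighbours, Angptl2 and Cdh5. Other genes, among them Gp1ba, Gp5, Gp6, Clec1b, Tubb1, P2ry12, Itgav, Cd9, Fli1, Runx1, Gata1 and the scarce HSC markers, were added after their values were seen, and 1 looked at is not reported here. Python 3.11.15, scipy 1.17.1 and pandas 2.3.3 were used, and the steps were tested on simulated data.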

Additional observations from a re-analysis of the deposited data

How the results depend on the processing

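No paired analysis was possible because each genotype has 1 library. The sign of the ratio of the 8 measured genes was kept under the other pseudocounts and scalings. With a pseudocount of 5 FPKM, 1 of the 9 genes (Pf4) was at least 2-fold higher and 0 lower, against 74 and 118 of 12325 genes of all types. With a minimum mean of 5 FPKM, 1 was higher and 1 lower, against 83 and 97 of 7658 genes. With a minimum mean of 200 fragments, chosen after seeing the data, 1 was higher and 1 lower, against 37 and 41 of 8797. Fewer of the 9 were higher there because Ppbp and Treml1 lie under these limits. At 4-fold 0 of the 9 were higher and 0 lower, against 75 and 165 of 12325 genes. At 1.5-fold 4 of the 9 were higher and 1 lower, against 708 and 749 of the same 12325. With a pseudocount of 0.1 FPKM 471 of 12325 genes were higher, and without a minimum 683 of 54531 were lower. These counts take in genes of all types, and among the 10237 protein-coding genes 50 were higher and 77 lower at 2-fold. Rescaling both libraries to a common total gave all genes a median of -0.15, against -0.011 as deposited. It put the medians of the alpha granule cargo, the glycoprotein and the megakaryocyte primed lists, with the 9 genes included, below 0, at -0.023, -0.11 and -0.12, while Pf4, Ppbp and Treml1 stayed past 2-fold. Leaving mitochondrially encoded genes out of the scaling put the medians of the granule assembly, dense granule, signalling and transcription factor lists above 0, at 0.025, 0.015, 0.027 and 0.011. Depth limits Gp1bb, which has too few fragments for a ratio, and Ppbp, Treml1 and Gp9, each with under 200 fragments in both libraries.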
